A study of Mus musculus with 49 samples.

Results

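Among 49 single neurons of the mouse somatosensory cortex, 10 held Cux1 RNA without RNA of the deep-layer genes Tbr1, Tle4 and Bcl11b, and 19 held RNA of at least 1 of these 3 genes without Cux1. The 29 cells were chosen by the measured levels of these 4 genes, with a limit of 10 RPM (reads of a gene normalized to a fixed total per cell) for a gene to count as held. Of the other cells, 16 held both kinds of marker and 4 held neither. All cells came from wild-type CD1 mice at postnatal day 7 (P7) and were labelled with FlashTag, a dye injected into the ventricle, at embryonic day E13.5. They are 1 condition. FlashTag is taken up by progenitors that divide at the ventricle and is diluted by later divisions, and bright cells were picked under the microscope and their contents drawn into a patch pipette (Patchseq). The labels name no animal, and the study's independent experiments are not tied to single cells, so the cells were treated as 1 sample. No test between cells was made, and each difference below is a description with the spread over cells.

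Cortical excitatory neurons settle in layers according to their date of birth. Neurons of layers 5 and 6 are born first and many project out of the cortex, and neurons of layers 2 to 4 are born later and project mainly within it. CUX1, a homeodomain protein, is made by most neurons of layers 2 to 4. TBR1, a T-box factor, and TLE4, a co-repressor, mark layer 6 neurons that project to the thalamus, whereas BCL11B (CTIP2) is high in layer 5 neurons that project to the brainstem and spinal cord. The program of TBR1 and the shared program of FEZF2 and BCL11B repress one another in young neurons, so that a mature neuron usually keeps only part of the set. Cux1 and Bcl11b are also made by classes of inhibitory neurons, which arise outside the cortex. The Cux1 gene also yields a Golgi protein, CASP, from the same locus, and gene counts do not separate these transcripts.

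In GENCODE M21 (GRCm38), Cux1 spans chr5:136248135-136567490 on the minus strand, Tbr1 chr2:61802930-61814114 on the plus strand, Tle4 chr19:14448150-14598051 on the minus strand and Bcl11b chr12:107910403-108003602 on the minus strand. Fezf2 spans chr14:12342094-12348189 and Rorb chr19:18930605-19111196, both on the minus strand. Promoter sequences of GRCm38.p6 from RefSeq, from 250 bases before to 50 after the most upstream listed start, are shown for 1 gene that set each group (Cux1 and Bcl11b) and for 1 layer gene higher in each group (Rorb and Fezf2). Of the genes past the limit used below, 340 of the 432 higher in Cux1-only cells and 85 of the 105 higher in deep-marker-only cells had a promoter in that table. Cux1 lies at chr5:136565932-136566231, Bcl11b at chr12:108003365-108003664, Fezf2 at chr14:12345816-12346115 and Rorb at chr19:19111147-19111446, all read on the minus strand. Capitals mark matches, on either strand, to the E-box CANNTG, the T-box half-site TCACACC, the octamer ATGCAAAT of POU factors and the cut-type site ATCGAT.
Cux1: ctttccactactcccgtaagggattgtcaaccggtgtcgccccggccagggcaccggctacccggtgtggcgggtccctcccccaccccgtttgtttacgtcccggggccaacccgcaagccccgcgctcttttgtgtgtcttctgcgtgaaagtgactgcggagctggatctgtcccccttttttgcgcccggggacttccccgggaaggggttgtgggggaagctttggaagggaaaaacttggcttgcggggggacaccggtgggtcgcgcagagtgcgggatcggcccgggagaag
Bcl11b: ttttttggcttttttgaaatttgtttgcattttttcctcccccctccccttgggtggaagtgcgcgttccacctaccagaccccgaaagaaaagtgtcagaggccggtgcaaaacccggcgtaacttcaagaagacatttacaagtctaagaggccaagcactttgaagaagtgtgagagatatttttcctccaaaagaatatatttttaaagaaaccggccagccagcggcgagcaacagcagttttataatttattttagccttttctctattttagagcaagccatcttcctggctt
Fezf2: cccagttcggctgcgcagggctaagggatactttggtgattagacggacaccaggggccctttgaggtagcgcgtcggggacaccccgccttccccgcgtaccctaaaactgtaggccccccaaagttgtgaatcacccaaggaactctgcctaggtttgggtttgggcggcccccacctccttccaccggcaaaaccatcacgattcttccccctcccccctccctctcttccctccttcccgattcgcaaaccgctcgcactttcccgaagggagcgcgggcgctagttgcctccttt
Rorb: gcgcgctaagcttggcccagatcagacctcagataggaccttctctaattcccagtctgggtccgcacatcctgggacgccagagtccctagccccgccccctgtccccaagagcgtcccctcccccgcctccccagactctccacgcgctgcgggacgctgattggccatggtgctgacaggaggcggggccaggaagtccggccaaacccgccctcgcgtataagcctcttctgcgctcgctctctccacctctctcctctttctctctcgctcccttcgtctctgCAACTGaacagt

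Only the Rorb promoter held a match, 1 E-box. Of 27025 promoters of this length, 72.1% held an E-box, 3.96% the T-box half-site, 1.77% the octamer and 0.881% the cut-type site. Because under 80% of the 432 genes had a promoter, motif shares over the gene groups were not compared.

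The 4 genes that chose the groups had the following levels, which are no finding. Cux1 lay between 28.9 and 415 RPM in Cux1-only cells, with a median of 137 RPM, and between 0 and 9.53 RPM in deep-marker-only cells, with a median of 2.06 RPM. Among the 19 deep-marker-only cells, 8 held Bcl11b alone, 4 Tbr1 alone and 3 Tle4 alone, 2 held Tbr1 with Bcl11b, and 2 held the 3 genes together. Few values lay near the limit. For Cux1 the value just inside was 19.4 RPM in a cell with both kinds of marker, and the value just outside was 9.53 RPM, or 2 reads, in a deep-marker-only cell. These values were 10.8 and 7.87 RPM for Tbr1, 18.3 and 9.53 RPM for Tle4, and 16.1 and 7.93 RPM for Bcl11b. The rule depended on the limit. When any read counted as holding a gene, 1 Cux1-only and 7 deep-marker-only cells were left.

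Depth was similar in the groups at the median. Cux1-only cells had between 424976 and 19533497 reads and deep-marker-only cells between 209850 and 14416592, with medians of 1035760 and 1141732. A median of 6099 genes (5005 to 8114) was detected in the former and of 5991 (3302 to 8138) in the latter. With all cells thinned to 209850 reads the medians were 4906 and 4414 genes. Genes at 10 RPM or more were less alike, with medians of 3799.5 (2547 to 5788) and 3227 (1944 to 5674). The 5 library pools held 2, 2, 2, 1 and 3 Cux1-only cells and 4, 5, 3, 4 and 3 deep-marker-only cells. The 12 index numbers of the labels recurred over pools, 9 of them in all 5. Mitochondrially encoded genes took a median of 1.03% of reads in Cux1-only and 1.82% in deep-marker-only cells. Hemoglobin genes took a median of 0.0566% and 0.119%, with a highest share of 21.6% in a deep-marker-only cell. A gene with 0 reads could have stood at up to 0.154 to 7.06 RPM in the Cux1-only cells and up to 0.208 to 14.3 RPM in the deep-marker-only cells, the levels of 3 reads. The kit has no molecular identifiers, so these limits and all intervals cover counting error only.

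**Figure D1:**
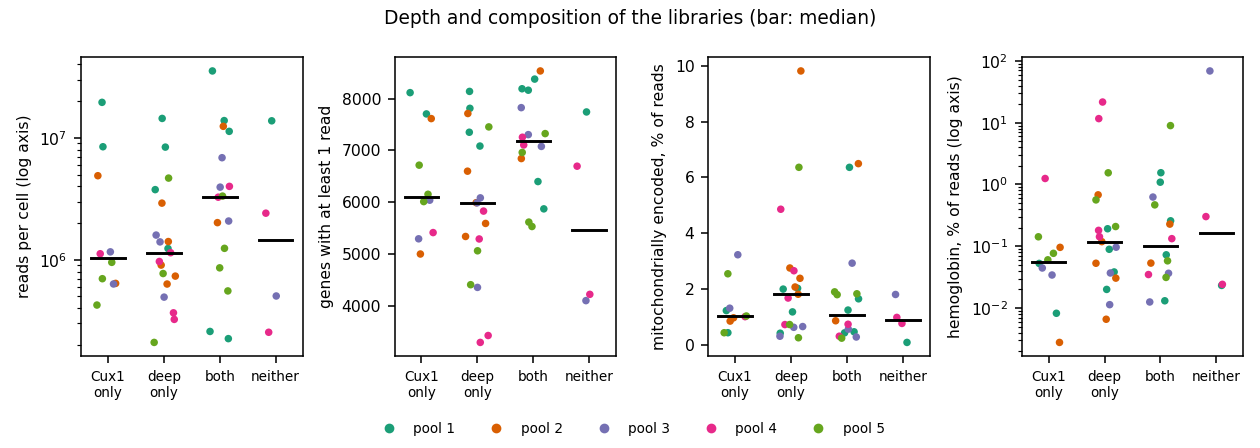
Reads per cell (log axis), genes with at least 1 read, the share of reads on mitochondrially encoded genes and the share on hemoglobin genes (log axis) are plotted for the 4 groups of cells. Points are cells coloured by library pool, bars are medians. The Cux1-only and deep-marker-only cells overlap in all 4 measures.

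The cells differed in class as well as in layer markers. All 29 held Stmn2, Snap25, Tubb3 and Map2, general neuronal genes, at 10 RPM or more. At least 2 of the excitatory genes Slc17a7, Neurod2 and Neurod6 were held by 5 of 10 Cux1-only cells (50%, exact 95% interval 18.7 to 81.3%) and by 14 of 19 deep-marker-only cells (73.7%, 48.8 to 90.9%). Another 5 Cux1-only cells (50%, 18.7 to 81.3%) and 3 deep-marker-only cells (15.8%, 3.38 to 39.6%) held at least 2 genes of the inhibitory list but fewer than 2 of these excitatory genes. They are called inhibitory-only cells below, which names this rule and not a cell type. The intervals overlap. Counted without regard to excitatory genes, at least 2 genes of the inhibitory list were held by 7 of 10 Cux1-only cells (70%) and 15 of 19 deep-marker-only cells (78.9%). This class was set up after its values were seen.

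In 3 of the 5 inhibitory-only cells of the Cux1-only group, 13, 9 and 9 genes of the inhibitory list stood at 10 RPM or more, with Vip, a neuropeptide of one class of interneurons, at 1475, 6203 and 8113 RPM. The other 2 had 2 inhibitory genes each, with Vip at 82.4 and 48.6 RPM, and 1 of them held Slc17a7, the vesicular glutamate transporter, at 313 RPM. Both had Gad1, which makes GABA, at 0 RPM and held Cux2, a gene of the superficial list, at 339 and 349 RPM. Their markers thus do not make these 2 inhibitory neurons, and the subset without inhibitory-only cells leaves them out all the same. The 3 inhibitory-only cells of the deep-marker-only group were chosen by Bcl11b alone and came from library pool 2. Vip in them was 2.21 RPM or less. Gad2, which also makes GABA, stood at 2.72, 324 and 419 RPM, and Gad1 at 54.5, 297 and 103 RPM. Because of these cells, each group of genes below is given for all cells and, where it matters, for the 5 Cux1-only and 16 deep-marker-only cells left without them.

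**Figure D2:**
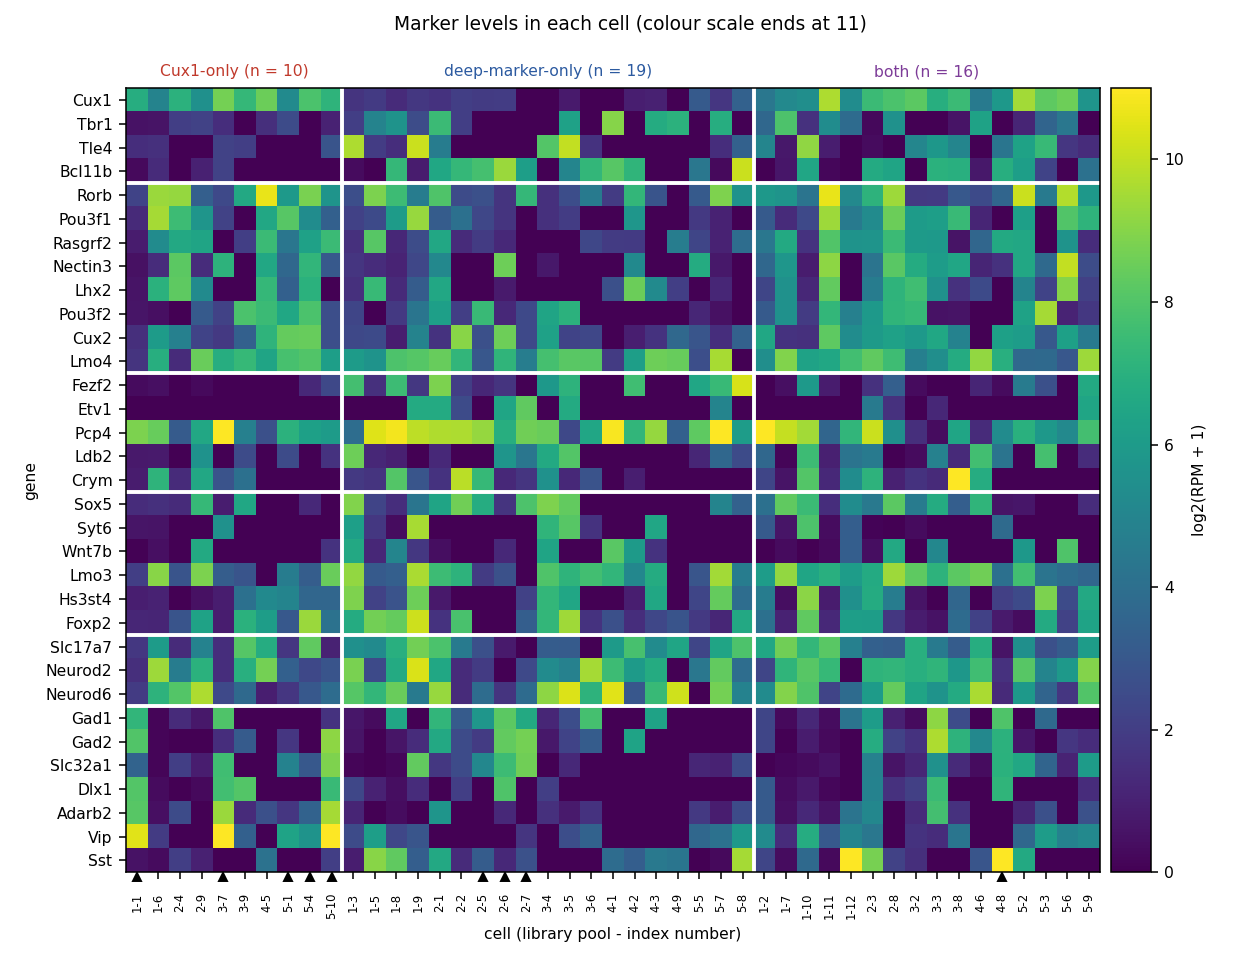
Rows are the 4 genes of the rule and layer, excitatory and inhibitory markers, columns are the 10 Cux1-only, 19 deep-marker-only and 16 cells with both kinds of marker, and colour is log2(RPM + 1). Triangles mark inhibitory-only cells: 5 Cux1-only cells, of which 3 are bright for Vip, 3 deep-marker-only cells and 1 cell with both.

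Over all genes, levels were compared as the difference of the mean log2(RPM + 1), Cux1-only minus deep-marker-only, for the 7405 genes that reached 10 RPM in at least 5 of the 29 cells, the 4 genes of the rule left out. The difference was 2 or more for 432 genes higher in Cux1-only cells (5.83% of those compared) and for 105 genes higher in deep-marker-only cells (1.42%). A difference of 2 is 4-fold on this scale, which understates the change of low genes. The median over all genes was 0.33 with an SD of 1.04, and 62.9% of genes lay above 0, so the comparison as a whole leaned towards the Cux1-only cells. These cells also had more genes at 10 RPM or more at the median, and the part of this in the lean was not tested. No gene separated the groups without overlap. In the mean of the differences within the 5 library pools, all 432 and all 105 genes kept their sign, and 136 and 48 kept it in each of the 5 pools. The pools hold the same cells that chose these genes, which assures most of this. Signs within pools, here and below, are therefore no separate evidence. Without the inhibitory-only cells, 909 (12.3%) and 253 (3.42%) of the same 7405 genes lay past the limit, and 214 of the calls over all cells were lost. With only 5 Cux1-only cells left, such calls are read against these larger shares.

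**Figure D3:**
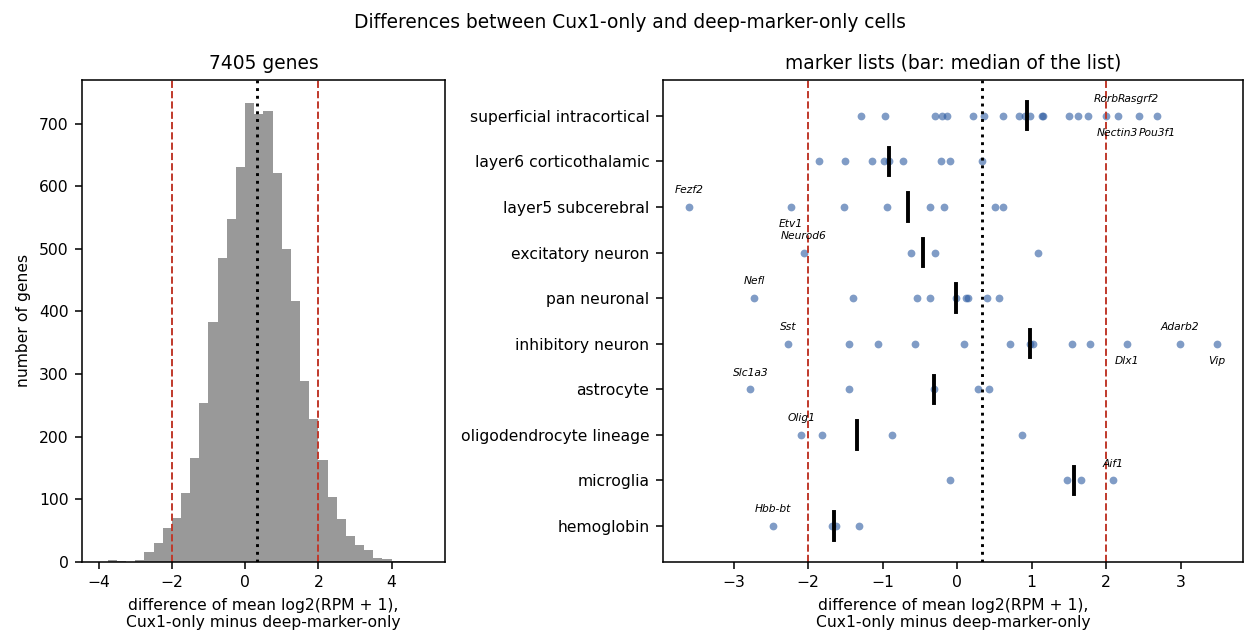
Left, the number of genes by difference of mean log2(RPM + 1), Cux1-only minus deep-marker-only. Right, the same difference for each compared member of 10 marker lists, with a bar at the median of the list and names for members past the limit of 2 (dashed lines). The dotted line is the median of all genes, 0.33. The superficial list lies mostly to its right and the layer 6, layer 5 and hemoglobin lists mostly to its left.

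Fezf2, a layer 5 gene, gave the largest difference towards the deep-marker-only cells. Fezf2, the zinc finger factor that directs neurons to the layer 5 subcerebral fate, was between 0 and 4.20 RPM in Cux1-only cells, with a median of 0.102 RPM, and between 0 and 1296 RPM in deep-marker-only cells, with a median of 3.16 RPM. It reached 10 RPM in 0 of 10 Cux1-only cells and in 9 of 19 deep-marker-only cells (47.4%), so that the groups overlapped only at the low end. The difference of mean log2(RPM + 1) was -3.59 (0.47 ± 0.78 against 4.06 ± 3.67, SD over cells), the largest towards the deep-marker-only cells, and it was negative in each of the 5 library pools. Without the inhibitory-only cells it was -4.50.

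Etv1, an ETS factor of layer 5 neurons, was listed at 0 in all 10 Cux1-only cells. In the deep-marker-only cells its median was also 0, but 6 of 19 reached 10 RPM and the highest stood at 315 RPM. The difference was -2.23, and -1.73 without the inhibitory-only cells, and depends on the pseudocount, since 1 group is at 0. Pcp4, a calmodulin regulator of deep-layer neurons, was found in nearly all cells. It ranged from 5.36 to 2986 RPM (median 84.6) in Cux1-only and from 4.28 to 2556 RPM (median 393) in deep-marker-only cells, with a difference of -1.52, and of -2.89 without the inhibitory-only cells. Of 14 layer 5 genes with values, 8 were high enough to compare. Of these 8, 2 (25%) passed the limit, both higher in deep-marker-only cells, against 1.42% of all genes. Both were kept by the filter through that group alone, so their direction is no finding. The median of the list was -0.66.

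Over all cells 6 of the 8 layer 5 genes lay below 0. Without the inhibitory-only cells the median of the list was -0.21, with Fezf2 and Pcp4 past the limit towards the deep-marker-only cells and S100a10 (2.77) and Cdh13 (2.26) past it towards the Cux1-only cells. These are 25% of the list in each direction, against 3.42% and 12.3% of all genes. Over all cells S100a10 differed by 0.62 and Cdh13, a cadherin, by -0.37. Crym, a thyroid hormone binding protein, stood at a median of 1.17 RPM in Cux1-only and 2.06 RPM in deep-marker-only cells, with a difference of -0.18. Its direction turned without the inhibitory-only cells, to 1.56, with medians of 15.8 and 1.74 RPM.

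Layer 6 genes leaned the same way, with none past the limit. Of the 9 compared, 8 lay below 0, and the median was -0.92 against 0.33 for all genes. Sox5, which delays the subcerebral program in layer 6 and subplate neurons, reached 10 RPM in 2 of 10 Cux1-only and 9 of 19 deep-marker-only cells, with medians of 1.5 and 9.53 RPM and a difference of -1.85. The difference of Sox5 was -0.23 without the inhibitory-only cells. Syt6, a synaptotagmin of corticothalamic neurons, reached 10 RPM in 1 and 5 cells, with a difference of -1.50, and of -2.47 without the inhibitory-only cells. Foxp2 and Rprm, both used as markers of layer 6, differed by only -0.22 and -0.09. Foxp2 reached 10 RPM in 5 of 10 Cux1-only cells, the highest at 645 RPM, so a cell without Tbr1 and Tle4 RNA could hold it.

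Genes of superficial and intracortical neurons leaned to the Cux1-only cells. Of 20 compared, 4 (20%) passed the limit in that direction, against 5.83% of all genes, and none in the other. The median of the list was 0.94. Without the inhibitory-only cells 4 (20%) passed it, against 12.3% of all genes. Pou3f1, a POU factor, ranged from 0 to 726 RPM (median 45.9) in Cux1-only and from 0 to 632 RPM (median 2.60) in deep-marker-only cells. It reached 10 RPM in 6 of 10 and 4 of 19 cells, with a difference of 2.69. Rasgrf2, a Ras exchange factor of upper layers, reached 10 RPM in 7 of 10 and 4 of 19 cells, with medians of 57.8 and 2.63 RPM and a difference of 2.44. Nectin3, an adhesion protein, had medians of 9.56 and 0.628 RPM and a difference of 2.16. The high ends of these genes overlapped in the 2 groups.

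Rorb, the nuclear receptor of layer 4, stood just past the limit. It ranged from 3.64 to 1609 RPM (median 78.4) in Cux1-only cells and from 0 to 464 RPM (median 7.79) in deep-marker-only cells, and reached 10 RPM in 7 of 10 (70%, 34.8 to 93.3%) and 9 of 19 cells. The difference was 2.001 and rested on a few cells, since it lay between 1.53 and 2.47 with any single cell left out. Without the inhibitory-only cells it was 3.32, and the medians were 610 and 15.04 RPM. Pou3f1 and Rasgrf2 also differed by more in these cells, by 3.41 and 3.12, whereas Nectin3 differed by 1.97.

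Several genes of the superficial list stayed within the limit. Lhx2, a LIM homeodomain factor, differed by 1.76, Pou3f2 by 1.62 and Cux2, the paralog of Cux1, by 1.496. Lhx2 passed the limit, at 3.10, without the inhibitory-only cells, held by 4 of 5 Cux1-only and 4 of 16 deep-marker-only cells, whereas Pou3f3, a further POU factor, turned from 0.36 to -1.02. Cux2 reached 10 RPM in 5 of 10 Cux1-only and 5 of 19 deep-marker-only cells. Bhlhe22 and Calb1 were lower in Cux1-only cells, by 1.30 and 0.97 on the log2 scale.

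**Figure D4:**
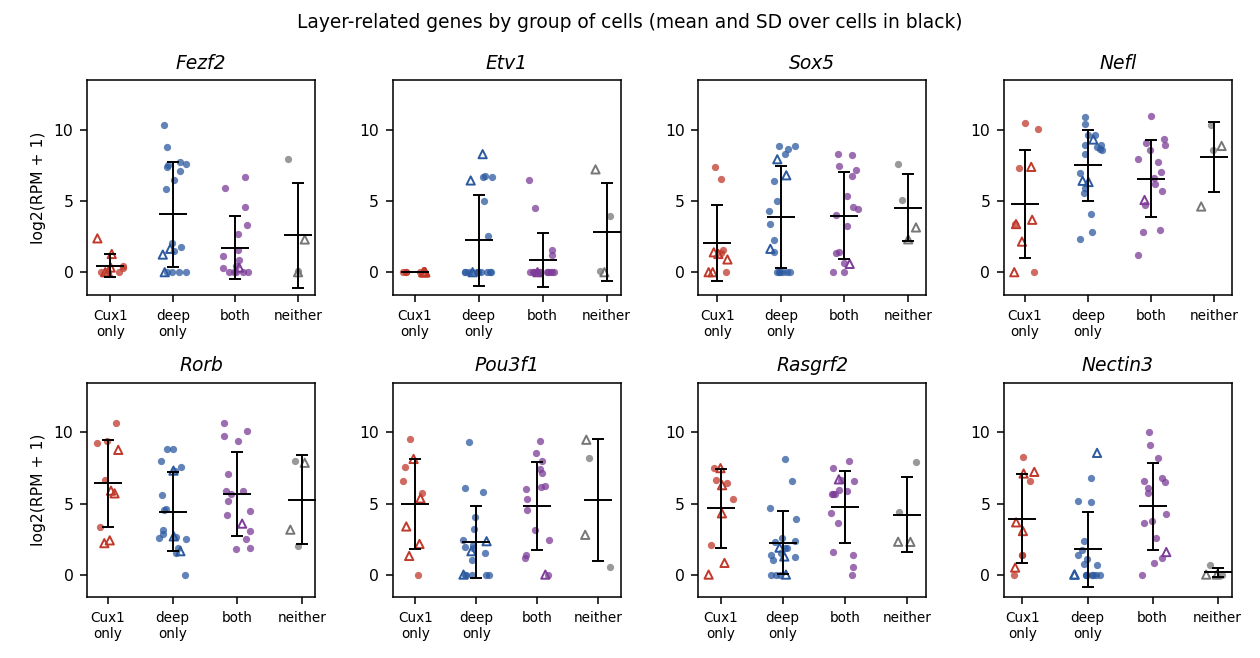
Levels of 8 genes as log2(RPM + 1) in the 10 Cux1-only, 19 deep-marker-only, 16 both and 4 neither cells. Points are cells, open triangles inhibitory-only cells, black bars the mean and SD over cells. Fezf2 and Etv1 lie at or near 0 in all Cux1-only cells. Rorb, Pou3f1, Rasgrf2 and Nectin3 are higher on average in Cux1-only cells, with overlapping ranges.

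Of 4 excitatory and 9 general neuronal genes, 1 each passed the limit, both towards the deep-marker-only cells. These are 25% and 11.1% of the lists, against 1.42% of all genes. Neurod6, a bHLH factor of cortical excitatory neurons, ranged from 0.893 to 802 RPM (median 9.90) in Cux1-only and from 0 to 1458 RPM (median 156) in deep-marker-only cells, with a difference of -2.06. It was -1.002 without the inhibitory-only cells. Slc17a7 differed by -0.62, Neurod2 by -0.30 and Camk2a, a calcium-dependent kinase subunit of excitatory neurons, by 1.09. Without the inhibitory-only cells Camk2a was past the limit towards the Cux1-only cells, at 2.05. It was 1 of the 4 excitatory genes (25%), against 12.3% of all genes. Neurod2 turned to 1.52, and the median of the 4 turned from -0.46 to 0.76. The median of the general neuronal genes was -0.01, and Nefl, the light neurofilament chain, was the one past the limit. Nefl reached 10 RPM in 5 of 10 and 17 of 19 cells, with medians of 10.7 and 392.4 RPM and a difference of -2.72, which was -1.29 without the inhibitory-only cells. Nefm, the medium chain, differed by -1.40, and by -0.67 without them.

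Of 13 inhibitory genes compared, 3 (23.1%) passed the limit towards the Cux1-only and 1 (7.69%) towards the deep-marker-only cells, against 5.83% and 1.42% of all genes. The median was 0.98, with 9 genes above 0 and 4 below. Gad1 (-1.07) and Npy (-1.46) were among those below, and Gad2 differed by 0.09. Without the inhibitory-only cells Gad1 differed by -1.79 and Gad2 by -0.85. Vip was among the 12 largest differences towards the Cux1-only cells, at 3.49, with values from 0 to 8113 RPM (median 29.1) against 0 to 70.8 RPM (median 2.21). Adarb2, an RNA-editing family member of the same caudal interneuron lineages, differed by 2.99 and the homeobox gene Dlx1 by 2.28. Sst, a peptide of another interneuron class, was higher in deep-marker-only cells, by 2.27 on the log2 scale. It reached 10 RPM in 1 of 10 Cux1-only cells, at 16.97 RPM, and in 7 of 19 deep-marker-only cells, the highest at 739 RPM. Calb2, a calcium-binding protein found in part of the Vip cells, differed by -0.57. The summed level of the list ranged from 10.7 to 10799 RPM in Cux1-only and from 20.8 to 3425 RPM in deep-marker-only cells.

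Without the inhibitory-only cells, Vip reached 10 RPM in 0 of 5 Cux1-only and 5 of 16 deep-marker-only cells and its difference turned to -1.04. Adarb2 then differed by 0.37 and Dlx1 by 1.14, so none of the 3 stayed past the limit, and the median of the list was -0.58. Sst differed by -1.94, and none of the 3 inhibitory-only cells of the deep-marker-only group held it. Within the deep-marker-only group, Sst was held by 6 of the 8 cells with Tbr1 and 1 of the 11 without. This split is by a gene of the rule, and the 11 include the 3 inhibitory-only cells. In the same split Neurod6 was held by 8 of 8 and 7 of 11, and all 7 cells with Sst held at least 2 of the 3 excitatory genes.

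The 12 genes with the largest differences towards the Cux1-only cells, by the naming rule, were BC003331, Rhot1, Acvr1, Atp2c1, Exoc7, Pbx4, Pofut2, Atp13a2, Daam1, Cnppd1, Srprb and Vip. Apart from Vip, none is a gene of a marker list. All 11 kept their sign in each of the 5 pools, in the same cells that chose them. BC003331 ranged from 0.947 to 793 RPM (median 54.3) in Cux1-only and from 0 to 145 RPM (median 0.428) in deep-marker-only cells, with a difference of 4.49 (6.02 ± 3.05 against 1.53 ± 2.26). Rhot1 (Miro1), a GTPase that ties mitochondria to motors, ranged from 7.35 to 347 RPM (median 117) and from 0 to 152 RPM (median 0), with a difference of 4.19. It reached 10 RPM in 8 of 10 and 5 of 19 cells.

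Atp2c1, a calcium and manganese pump of the Golgi, reached 10 RPM in 10 of 10 Cux1-only cells (18.8 to 674 RPM, median 162) and in 8 of 19 deep-marker-only cells (0 to 204 RPM, median 6.17). The difference was 3.82. Its lowest Cux1-only value lay within the range of the deep-marker-only cells. Atp13a2, a lysosomal polyamine transporter, and Daam1, a formin, each reached 10 RPM in 9 of 10 Cux1-only cells, and in 11 and 8 of 19 deep-marker-only cells, with differences of 3.65 and 3.63. Acvr1, a type I receptor for BMP ligands, differed by 3.89, Exoc7, a subunit of the exocyst, by 3.81, and Pbx4, a TALE homeobox factor, by 3.77. Pofut2, an O-fucosyltransferase of the endoplasmic reticulum, differed by 3.68, Cnppd1 by 3.55 and Srprb, a subunit of the receptor for the signal recognition particle, by 3.50. The differences of the 11 genes other than Vip lay between 2.92 (Acvr1) and 4.97 (Pbx4) without the inhibitory-only cells.

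The 12 largest differences towards the deep-marker-only cells were those of Fezf2, Mmp17, Mid1ip1, Rgs4, Slc1a3, Itgb1bp1, Nefl, Rtcb, Mad2l1bp, Cdkn2d, Npc2 and Coro1b, from -3.59 to -2.64. Mmp17, a membrane-anchored matrix metalloproteinase, was between 0 and 2.86 RPM in Cux1-only cells (median 0) and between 0 and 1338 RPM in deep-marker-only cells (median 3.09), where it reached 10 RPM in 9 of 19. Its difference was -3.59. Rgs4, a brake on G-protein signalling, had medians of 5.24 and 143 RPM and a difference of -2.80. Mid1ip1, a regulator of fatty acid synthesis, was at a median of 0 and at most 80.2 RPM in Cux1-only cells, against a median of 34.02 RPM, with a difference of -3.42. Itgb1bp1, an integrin-binding protein, and Mad2l1bp, a regulator of the spindle checkpoint, reached 10 RPM in 0 of 10 Cux1-only cells and in 9 and 8 of 19 deep-marker-only cells. Fezf2, Mmp17 and Slc1a3 likewise reached 10 RPM in no Cux1-only cell. The filter kept these genes through the deep-marker-only cells alone, so their direction is no finding. Of these 12 genes, 10 stayed past the limit without the inhibitory-only cells, and Nefl (-1.29) and Coro1b (-1.97) did not. Cdkn2d, an inhibitor of cyclin-dependent kinases, had medians of 53.6 and 158 RPM.

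**Figure D5:**
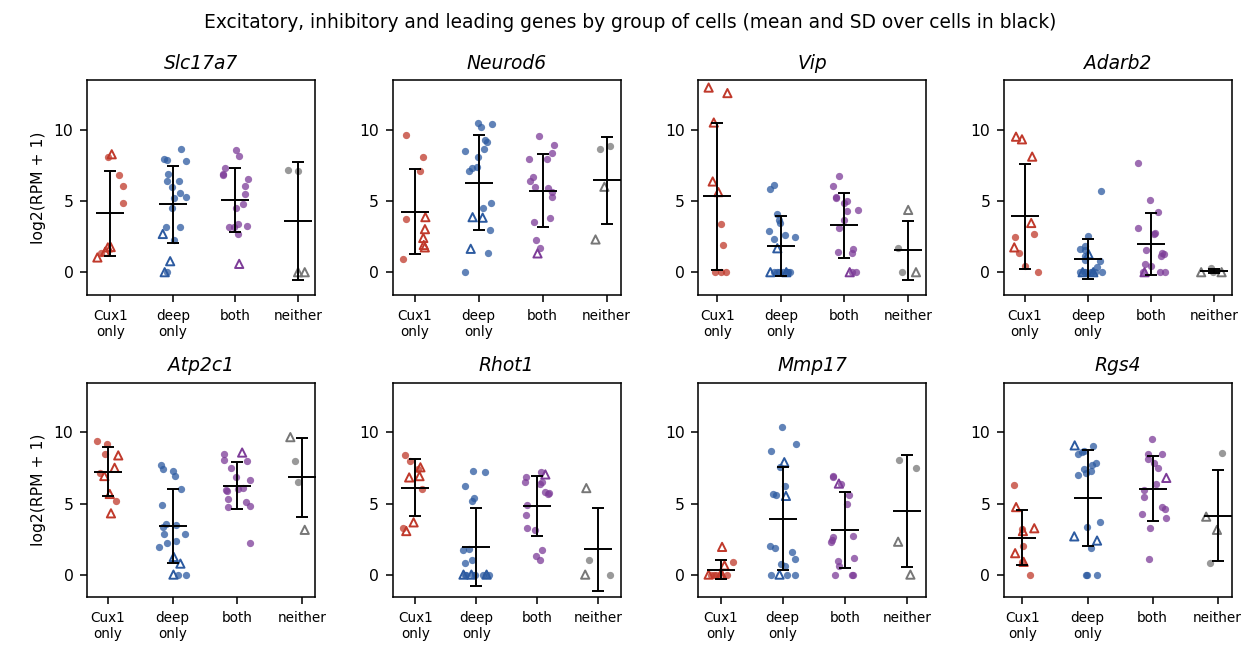
Levels of 8 further genes as log2(RPM + 1) in the 4 groups of cells, drawn as points with mean and SD over cells in black and open triangles for inhibitory-only cells. The 3 highest Vip values, all in Cux1-only cells, are inhibitory-only cells. Atp2c1 and Rhot1 are higher in Cux1-only cells of both kinds, and Mmp17 is at or near 0 in all of them.

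Slc1a3, a glutamate transporter of astrocytes, was the one glial gene among them, at 0 to 7.90 RPM in Cux1-only cells and 0 to 1121 RPM in deep-marker-only cells, with 9 of 19 at 10 RPM or more. Markers of glia were frequent in both groups: at least 2 markers of 1 glial class were held by 9 of 10 Cux1-only and 17 of 19 deep-marker-only cells. At least 2 of the 8 astrocyte markers in the table were held by 6 and 15 cells, at least 2 of 6 oligodendrocyte lineage markers by 3 and 8, and at least 2 of 8 microglial markers by 5 and 6. The summed level of the astrocyte list ranged from 18.8 to 2641 RPM and from 0 to 4167 RPM, and the median of its 5 compared genes was -0.31. That of the oligodendrocyte lineage ranged from 0 to 266 RPM and from 0 to 3905 RPM, with a median of -1.34, and Olig1 passed the limit at -2.09 (-1.12 without the inhibitory-only cells). That of microglia ranged from 1.23 to 4429 RPM and from 0 to 10284 RPM, with a median of 1.57, and Aif1 passed the limit at 2.09. The median of the 4 hemoglobin genes was -1.65, and Hbb-bt passed the limit at -2.47. These calls were 1 of 5 astrocyte genes (20%, Slc1a3) and 1 of 4 genes (25%) in each other list. Of all genes, 5.83% passed towards the Cux1-only and 1.42% towards the deep-marker-only cells. Without the inhibitory-only cells 2 of the 4 microglial genes (50%), Aif1 and C1qc, passed towards the Cux1-only cells, against 12.3% of all genes. The part of glial RNA in the differences of other genes was not tested. Only 1 Cux1-only cell had no glial class, so the comparison could not be made without them. Of the endothelial list, the 1 gene in the table was too low to compare.

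Of 40 voltage-gated channel genes, 6 (15%) passed the limit towards the Cux1-only cells, against 5.83% of all genes, and none in the other direction, with a median of 0.69 against 0.33. They were Kcnt2 (2.78), Cacna2d1 (2.51), Kcnq5 (2.40), Scn9a (2.40), Hcn3 (2.08) and Scn2a (2.04). Cacna2d1, a calcium channel subunit, reached 10 RPM in 9 of 10 Cux1-only cells (median 103 RPM) and 8 of 19 deep-marker-only cells (median 9.18 RPM). Scn2a, a sodium channel of excitatory neurons, reached it in 10 of 10 and 14 of 19 cells. Without the inhibitory-only cells Cacna2d1 differed by 3.13, Scn2a by 2.10 and Scn9a by 2.26, whereas Kcnt2 differed by 1.45, Kcnq5 by 1.76 and Hcn3 by 0.53. In those cells 5 of the 40 channel genes (12.5%) were past the limit, against 12.3% of all genes.

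Adhesion genes gave 3 calls of 36 (8.33%, against 5.83% of all genes), all towards the Cux1-only cells: Cntn4 (3.02), Cadm2 (2.12) and Cntn1 (2.11). Cntn1 stayed at 2.11 without the inhibitory-only cells, and Cntn4 (1.15) and Cadm2 (1.73) did not reach the limit. In that subset 4 of the 36 (11.1%) passed towards the Cux1-only cells, with Cdh13, Cdh9 and Pcdh9 gained. Another 3 (8.33%), Cadm3, Pcdh10 and Pcdh19, passed towards the deep-marker-only cells. The shares of all genes were 12.3% and 3.42%. Cadm2 stood between 325 and 2519 RPM in the 10 Cux1-only cells and between 0 and 1898 RPM in the deep-marker-only cells, with medians of 956 and 212 RPM. Of 28 receptors for glutamate and GABA, Gabrb1 was higher by 2.27 in Cux1-only cells, and Grik3, a kainate receptor subunit, differed by -2.24. Each was 1 of 28 (3.57%), against 5.83% and 1.42% of all genes. Grik3 reached 10 RPM in 0 of 10 Cux1-only and 5 of 19 deep-marker-only cells, and its difference without the inhibitory-only cells was -1.73. The filter kept Grik3 through the deep-marker-only cells alone, so its direction is no finding. In the subset without the inhibitory-only cells, 4 of the 28 receptors (14.3%) passed towards the Cux1-only cells, with Gabra5, Grik1 and Grm3 gained. Another 1 (3.57%), Grik5, passed towards the deep-marker-only cells. Of 25 axon guidance genes, 1 (4%) passed the limit, Sema5b at 2.36, against 5.83% of all genes. All 4 Cux1-only cells with Sema5b were inhibitory-only cells, and its difference without the inhibitory-only cells was -0.48. In that subset Sema7a (4% of the list) passed towards the Cux1-only cells and Efnb3 (4%) towards the deep-marker-only cells. Of 49 vesicle and SNARE genes, 1 (2.04%) passed the limit, Stx5a at 2.03 (1.28 without the inhibitory-only cells), and of 26 microtubule genes none did. In the subset without those cells, 4 of the 49 (8.16%) passed towards the Cux1-only and 2 (4.08%) towards the deep-marker-only cells. Of the 26, 1 (Map1a) passed there, towards the Cux1-only cells.

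Over all cells, housekeeping groups also stayed within the limit apart from single genes. Of 41 cytosolic ribosomal protein genes, 1 (2.44%) passed it (Rps28, at -2.05), against 1.42% of all genes, and the median was -0.37. Of 83 nuclear genes of oxidative phosphorylation and its assembly, 1 (1.20%) passed it (Ndufaf5, at -2.10). Of 33 proteasome subunits 1 (3.03%) did (Psmd3, at 2.48), against 5.83% of all genes, and of 10 mitochondrially encoded genes none. Of 10 immediate early genes, Egr4 alone (10%) passed the limit, at -2.46. Of 17 transcription factors of neuronal maturation, Neurod6 alone (5.88%) did, against 1.42% of all genes. Rps28 differed by -1.59, Ndufaf5 by -0.33 and Psmd3 by 1.75 without the inhibitory-only cells and lost their calls, whereas Egr4 stayed, at -3.11. Other members passed the limit in that subset. Towards the Cux1-only cells these were 3 of 33 proteasome (9.09%), 2 of 83 oxidative phosphorylation (2.41%) and 2 of 10 immediate early genes (20%), against 12.3% of all genes. Towards the deep-marker-only cells, 2 of 41 ribosomal protein genes (4.88%) did, against 3.42%. The 1 subplate gene compared, Cplx3, differed by -0.92.

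A few picked genes are described within the deep-marker-only cells by the rule gene held, without the share over all genes. The 14 cells without Tle4 include the 3 inhibitory-only cells. They also reach down to 1944 genes at 10 RPM or more, against 2485 at the lowest with Tle4. The part of class and library in these splits was not tested. Sox5 reached 10 RPM in 5 of the 5 cells with Tle4 and in 4 of the 14 without, with medians of 323 and 1.93 RPM. Syt6 reached it in 4 of 5 and 1 of 14. Fezf2 was held by 4 of the 5 cells with Tle4 (median 137 RPM) and 5 of the 14 without (median 1.996 RPM), and by 6 of the 12 with Bcl11b and 3 of the 7 without. Fezf2 was thus found in cells with and without Bcl11b.

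The 16 cells with both kinds of marker did not choose the genes above and are given beside them. For each of the 12 genes highest in Cux1-only cells, their mean lay between the means of the 2 groups, in 5 cases nearer the Cux1-only cells and in 7 nearer the deep-marker-only cells. For the 12 highest in deep-marker-only cells it lay between in 8 and above both groups in 4, and in 10 of 12 it was nearer the deep-marker-only cells. These genes were chosen for a wide gap between the 2 groups, which favours means of other cells between them. Of all genes past the limit, 367 of the 432 and 77 of the 105 likewise lay between. Of the 432, 277 were nearer the Cux1-only cells and 155 nearer the deep-marker-only cells, unlike the split of the 12. Of the 105, 84 were nearer the deep-marker-only cells and 21 nearer the Cux1-only cells. Among all 7405 genes compared, 2357 lay between and 4357 above both groups. Of these 7405, 4095 were nearer the Cux1-only and 3310 nearer the deep-marker-only cells. In these 16 cells Fezf2 was held by 3, Rorb by 12, Pou3f1 by 10, Rasgrf2 by 12 and Nectin3 by 11. They had the highest median depth of the groups, 3291870 reads, and the most genes detected, 7181 at the median, and the part of depth in these means was not tested.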

How the data were processed

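Single cells were collected from slices of P7 mouse somatosensory cortex, with 3'-end libraries from a SMART-Seq v4 kit. The authors aligned the reads with STAR, counted them per gene with HTSeq and normalized to RPM. Versions and the annotation are not given in the sources used here, and the labels name mm10. The deposited values are RPM for 9020 genes in 49 cells, each gene at 100 RPM or more in at least 2 cells. Whole reads were recovered from the RPM steps of each cell. All 314114 non-zero values (100%) were whole multiples to within 0.01. A count test was not run, since the cells are 1 sample.

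The members, the gene lists and the limits were chosen with earlier results of these data known. Differences are of mean log2(RPM + 1). Genes were kept at 10 RPM or more in at least 5 of the 29 cells, and a difference of 2 was called. Beside members of marker lists, and members of functional lists past the limit, the text names the 12 largest differences in each direction whose sign held within pools and after thinning, without predicted genes, mitochondrially encoded genes and the 4 genes of the rule. Shares carry exact Clopper-Pearson 95% intervals. One planned list member is not reported here and was left out of its lists. The scripts were tested on simulated data. Alternatives were other limits, pseudocounts, filters, medians, thinning, scalings, pools, a model with log10 reads, and subsets of cells. The subset without inhibitory-only cells and the omission of each cell in turn were chosen after seeing the data. Coordinates are from GENCODE M21, promoters from RefSeq. edgeR 4.0.16 in R 4.3.3 gave the TMM factors, and all else was done in Python 3.11.15 with scipy 1.17.1, pandas 2.3.3 and numpy 2.4.6.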

Additional observations from a re-analysis of the deposited data

Results flagged for a closer look

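In the 10 Cux1-only cells, 6 of the 43 genes examined had 1 cell whose gap to the nearest other cell was large against the range of the group. The usual chance rate of about 1 in 20 groups does not hold here. RPM values are skewed, and several of these genes were named for low levels in this group. No excess over chance can be read from the 6. Pofut2 was 4.71 RPM in cell 1 of library pool 5 and 52.8 to 398 RPM in the other 9 cells. For the other genes the cell that stood apart was the highest. Mid1ip1 was 80.2 RPM in cell 9 of pool 2 and at most 0.237 RPM elsewhere, Coro1b was 108 RPM in cell 6 of pool 1 and at most 5.72 RPM elsewhere, and Mmp17 was 2.86 RPM in cell 4 of pool 5 and at most 0.829 RPM elsewhere. Sst was 16.97 RPM in cell 5 of pool 4 and at most 3.15 RPM elsewhere, and Olig1 was 15.6 RPM in cell 4 of pool 2 and at most 2.05 RPM elsewhere. The differences of Mid1ip1, Coro1b and Sst stayed towards the deep-marker-only cells, and came no nearer to 0 than -3.12, -2.33 and -1.92 with any single cell left out.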

How the results depend on the processing

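The numbers of genes past the limit, 432 higher in Cux1-only and 105 higher in deep-marker-only cells, moved with the measure. They were 999 and 277 with a pseudocount of 0.1, 35 and 4 with 10, 1241 and 347 for medians, 1865 and 701 at a limit of 1, and 57 and 3 at a limit of 3. With a marker limit of 20 RPM they were 268 and 95 (13 and 19 cells). Only excitatory cells gave 734 and 251 (5 and 14 cells), cells without inhibitory markers 420 and 223 (3 and 4 cells), cells without hemoglobin 403 and 163, and cells other than inhibitory-only 841 and 232, with the filter on low values applied anew. Leaving out each pool gave 424 to 707 and 127 to 198, and leaving out each cell 370 to 573 and 82 to 161. The 161 came without the Cux1-only cell 9 of pool 2. The share of calls towards the Cux1-only cells, 80.4%, lay between 65.3% (no inhibitory markers) and 95% (limit of 3). TMM scaling gave 371 and 111, thinned reads 518 and 147, and the model at equal log10 reads 374 and 129. In all these fits the Cux1-only count was the larger. At a marker limit of 1 RPM, 1 Cux1-only and 10 deep-marker-only cells were left, at 1 read 1 and 7, so the gene comparison was not run there, nor without cells of a glial class.

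Vip reversed to -1.08 in excitatory cells, -0.93 without cells with inhibitory markers and -1.04 without inhibitory-only cells. In the 3 and 4 cells without inhibitory markers, Nefl was 0.46, Neurod6 3.05, Dlx1 -0.84, Sst 0.78, Adarb2 -0.056 and Aif1 -3.64. List medians there were -3.04 (layer 6), 3.04 (excitatory), 1.31 (general neuronal), 2.26 (oligodendrocyte lineage) and -2.83 (microglia), and that of the inhibitory list was -0.89 in excitatory cells. At 1 RPM, Fezf2 was held by 73.7% of deep-marker-only and 20% of Cux1-only cells, and Rorb by 94.7% and 100%, so that the groups differed little in Rorb at this limit. The cause of these moves was not tested beyond the cells left. Single cells decided the calls nearest the limit: it was missed when any 1 of 15 cells was left out for Rorb (nearest to 0, 1.53), of 4 for Nectin3 (1.67), of 5 for Etv1 (-1.90), of 14 for Neurod6 (-1.69), of 4 for Dlx1 (1.73), of 3 for Sst (-1.92), of 6 for Olig1 (-1.64) and of 14 for Aif1 (1.46), with no change of sign. No paired analysis was possible because the study has 1 condition. Depth limits single cells: 1 read was up to 4.77 RPM, so 10 RPM can be 3 reads.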
